A study of Homo sapiens with 6 samples.

Results

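The nuclear genes for subunits of the mitochondrial respiratory chain were compared between A549 cells depleted of BAP18 and control cells. Members were found by gene name. They comprised NDUFA, NDUFB, NDUFC, NDUFS and NDUFV followed by a number, SDHA to SDHD, 8 UQCR genes, COX4 to COX8 with their isoform letters, and ATP5 followed by further letters or digits. Of 99 names that matched, 20 ended in P and a number, as pseudogenes do, and were dropped. This left 79 of the 35474 genes listed, with 37 genes in complex I, 4 in complex II, 8 in complex III, 12 in complex IV and 18 in complex V. The name rule itself uses no measured value.

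A549 cells are an established human line derived from a lung adenocarcinoma. BAP18 is a chromatin-associated protein that recognizes methylated histone H3 and works with remodeling and acetyltransferase complexes. The study asked which transcripts changed when BAP18 was depleted. Of 6 biological replicates, 3 were transfected with siBAP18 and 3 with a nontargeting siRNA (siCtrl), and poly(A) RNA was taken 48 h later. No other agent or allele distinguished the groups. Which of the study's BAP18 siRNAs these cultures received is not given in the sources used here, and each group was 1 cell line with 1 kind of siRNA treatment.

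The respiratory chain, in the inner mitochondrial membrane, carries electrons from NADH and succinate to oxygen. Complexes I, III and IV pump protons as they do so, complex II feeds in electrons from succinate without pumping, and complex V (ATP synthase) uses the proton gradient to make ATP. Most subunits are encoded in the nucleus and imported, whereas a small set in complexes I, III, IV and V is encoded by mitochondrial DNA. Nuclear subunit genes are known targets of the transcription factors NRF1 and GABPA and of PGC-1 coactivators.

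BAP18, listed as C17orf49, had 743, 751 and 705 counts in siCtrl and 120, 137 and 108 in siBAP18. In CPM, the usual scaled count, taken here relative to the library total after edgeR's TMM factors, that is 15.1 ± 1.09 and 2.41 ± 0.235 (SD, n = 3 each). Its log2 fold change was −2.65 (adjusted p = 7.31e-16). Libraries held 42094524 to 56548620 counts, and members took 0.820% to 0.847% of them in siCtrl and 0.893% to 0.971% in siBAP18. Of 5 epithelial markers, the keratins KRT8 and KRT18 were abundant in all 6 libraries but lower in siBAP18 (log2 fold change −0.37 and −0.24, adjusted p = 0.000336 and 0.0102), as were EPCAM (−0.41, adjusted p = 3.78e-05) and the cadherin CDH1 (−1.32, adjusted p = 3.81e-14), whereas KRT19 did not pass (0.15, adjusted p = 0.0894). KRT18 did not pass without siCtrl replicate 1 or 3 (adjusted p = 0.0523 and 0.0584), and KRT19 was higher without siBAP18 replicate 2 (0.23, adjusted p = 0.00199). All 4 genes known for strong expression in A549 were lower, namely AKR1B10 (−0.96), AKR1C1 (−0.87), ALDH1A1 (−0.85) and NQO1 (−0.34). The part of these shifts in the results on the respiratory chain was not tested. CDKN2A, which A549 lacks, was at most 0.150 CPM, and the markers of other cell types that were examined (PECAM1, LUM and SFTPC) stayed below 1 CPM, where PECAM1 was lower in siBAP18 (−1.53, adjusted p = 0.00123). PTPRC and DCN had no entry among the genes listed. Of the siBAP18 libraries, replicate 3 was the highest for 56 of the 77 members tested and replicate 2 the lowest for 57. The SD of CPM was larger in siBAP18 than in siCtrl for 60 of the 77 members.

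As a view of where these genes start, promoter sequence was taken from RefSeq on GRCh38.p14 for 5 members. NDUFS6, COX5B and ATP5I were higher in siBAP18, and NDUFS1 and ATP5A1 were lower; they were chosen after their values were seen, as changed members of 3 complexes. Each line ends just before the outermost start, RefSeq's or that of the deposited gene, and reads 5′ to 3′ on the strand of the gene. The regions are chr5:1801280-1801399 (+), chr2:97645920-97646039 (+), chr4:674339-674458 (−), chr2:206159604-206159694 (−) and chr18:46104335-46104454 (−) in that order. Capitals mark matches to CGCATGCG (NRF1 core), CCGGAAGT (GABPA and other ETS factors), AAGATGGCG (YY1) or GGGGCGGG (SP1), on either strand. In COX5B the SP1 and ETS letters share a base. Other matches lie in the RefSeq window but outside the stretches shown, namely the ETS match of NDUFS1, which falls within the deposited gene, a further SP1 match in ATP5A1, and a further SP1 and a further ETS match in COX5B.
NDUFS6: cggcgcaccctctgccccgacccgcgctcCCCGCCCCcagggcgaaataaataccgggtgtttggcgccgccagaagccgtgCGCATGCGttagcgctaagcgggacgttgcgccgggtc
COX5B: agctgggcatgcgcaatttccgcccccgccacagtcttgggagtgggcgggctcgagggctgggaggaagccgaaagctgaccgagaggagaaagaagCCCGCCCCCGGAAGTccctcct
ATP5I: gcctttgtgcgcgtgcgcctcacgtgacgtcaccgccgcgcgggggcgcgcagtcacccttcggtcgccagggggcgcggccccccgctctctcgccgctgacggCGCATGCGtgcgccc
NDUFS1: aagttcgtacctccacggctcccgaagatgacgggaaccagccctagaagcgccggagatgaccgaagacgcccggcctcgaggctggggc
ATP5A1: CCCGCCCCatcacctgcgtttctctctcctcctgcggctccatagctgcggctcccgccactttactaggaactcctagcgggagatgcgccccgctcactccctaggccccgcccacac

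RefSeq promoters, from 250 bases before the start to 50 after it, were matched for 64 members. The NRF1 core was found in 10 of them (15.6%), against 3.68% of the 12175 promoters of genes tested and 2.19% of all 27305 promoters. The ETS letters were found in 9 (14.1%, against 7.98% and 4.44%) and the YY1 letters in 8 (12.5%, against 3.60% and 1.85%). The SP1 letters were found in 11 (17.2%, against 36.9% and 22.7%). The NRF1 core was present in 4 of 23 promoters of members that were higher, 5 of 32 that did not pass and 1 of 9 that were lower. The YY1 letters were present in 6 of 23, 1 of 32 and 1 of 9. In 7 of those 8 promoters no YY1 match lay wholly before the start, so the match there spanned the start or lay in the transcribed part. These are matches of letters, and binding was not measured.

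Of the 79 members, 77 had enough counts to be tested. With edgeR's quasi-likelihood test and adjustment over all 20776 genes tested, 27 members were higher in siBAP18, 11 were lower and 39 did not pass an adjusted p of 0.05. No member passed that threshold together with an absolute log2 fold change over 1, which 8.46% of all genes did. The count of 0 was the same at an unadjusted p under 0.05, with DESeq2 and with limma. In bulk RNA, fewer cells that express a gene and less RNA per cell cannot be told apart. An adjusted p under 0.05 in either direction was found for 49.4% of members and for 49.6% of all genes. The directions were divided unequally. Higher expression was seen for 35.1% of members against 24.5% of all genes, and lower expression for 14.3% against 25.1%. The median log2 fold change was 0.11, and the median of all genes was 0.00.

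Members are more abundant than most genes, with a median average log2 CPM of 6.15 against 2.80, and a small difference is more easily detected at that depth. Among the 6518 genes with an average log2 CPM from 4.06 to 8.01, the middle 80% of the members' range, 34.7% were higher and 32.9% lower, so 67.7% passed in either direction. The 61 members in that range comprised 22 that were higher (36.1%) and 9 that were lower (14.8%), and 50.8% passed. At like abundance the share that passed was thus smaller in members, and the share that was higher was near the background. The 3 siBAP18 libraries lay wholly above or wholly below the 3 siCtrl libraries for 41 members, 31 of them above and 10 below. The same separation was found for 56.6% of all genes.

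**Figure D1:**
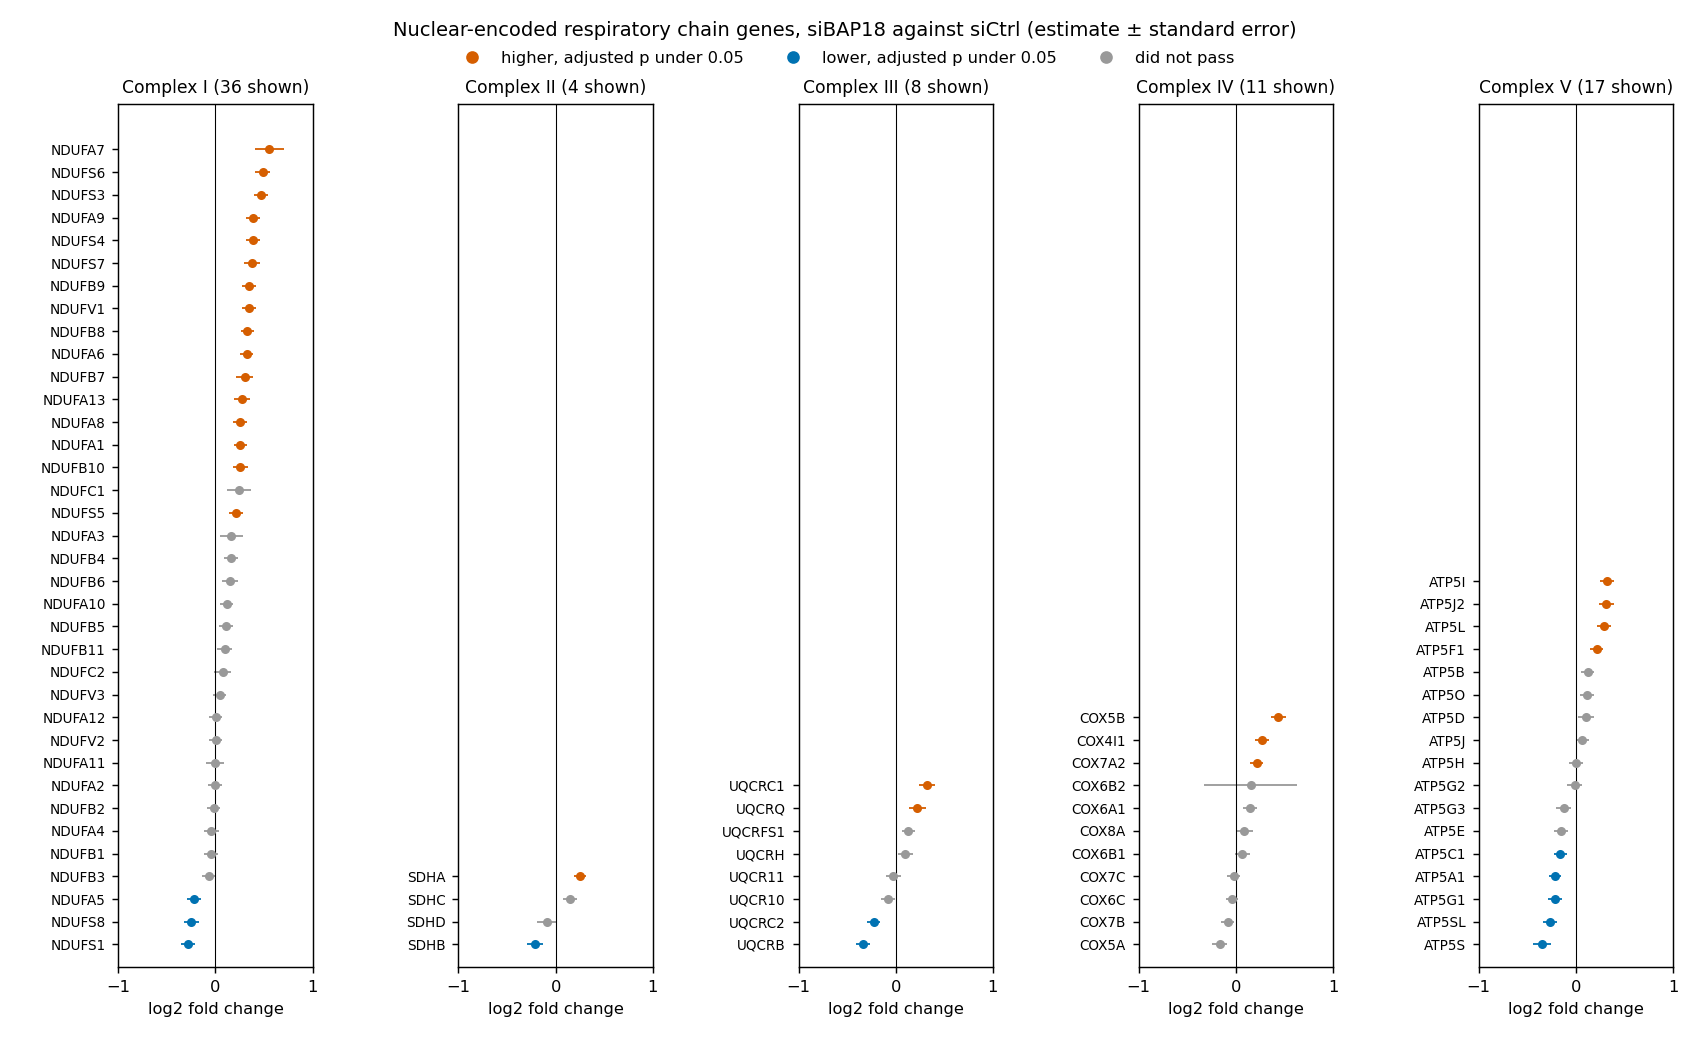
Log2 fold change of 76 of the genes tested, siBAP18 against siCtrl, with the standard error of the fit as bars, in 5 panels by complex. The estimates shown lie between −0.35 (ATP5S) and 0.55 (NDUFA7), and 27 of the 36 shown for complex I lie above 0.

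Complex I oxidizes NADH and passes its electrons to ubiquinone. In siBAP18, 17 of its 37 nuclear genes were higher, 3 were lower and 17 did not pass, with a median log2 fold change of 0.16. That is 45.9% higher and 8.11% lower, beside 24.5% and 25.1% of all genes. Of the genes in the members' middle range of abundance, 34.7% were higher and 32.9% lower.

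The nuclear genes of the catalytic core, which hold the flavin site and the chain of iron-sulfur clusters, did not move together. NDUFS3, NDUFS7 and NDUFV1 were higher, NDUFS1 and NDUFS8 were lower, and NDUFV2 did not pass. NDUFS3, a subunit of the module that leads to ubiquinone, was at 54.0, 50.4 and 51.4 CPM in siCtrl and at 74.0, 65.7 and 76.8 CPM in siBAP18 (log2 fold change 0.47, standard error 0.071, adjusted p = 4.75e-06). NDUFV1, the flavin-carrying subunit, was at 128, 115 and 128 CPM against 157, 141 and 175 CPM (0.35, adjusted p = 0.000465). In both genes every siBAP18 library lay above every siCtrl library. NDUFS7, which carries the last cluster before ubiquinone, was at 14.6, 13.1 and 14.5 CPM against 18.7, 16.4 and 19.9 CPM (0.38, adjusted p = 0.000703). However, 35.7% of the exon bases of NDUFS7 are shared with AC005329.7 on the opposite strand. For NDUFS3, 19.6% are shared with PTPMT1 on the same strand. NDUFV2, the partner of NDUFV1 in the NADH-oxidizing module, was at 74.2, 68.7 and 72.9 CPM and at 72.8, 72.9 and 70.0 CPM, and the groups overlapped fully.

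NDUFS1, the largest core subunit, carries several iron-sulfur clusters. It was at 73.8, 75.9 and 76.2 CPM in siCtrl and at 64.8, 65.0 and 55.7 CPM in siBAP18 (log2 fold change −0.28, standard error 0.071, adjusted p = 0.0017). NDUFS8, which carries 2 iron-sulfur clusters next to NDUFS7, was at 25.7, 24.3 and 25.6 CPM and at 20.4, 20.2 and 23.1 CPM (−0.25, adjusted p = 0.00817). Both fell without overlap between the groups. NDUFS1 did not pass when an offset for gene length (−0.15, adjusted p = 0.0608) or for length and GC content (−0.0047, adjusted p = 0.951) was added. NDUFS8 did not pass without siBAP18 replicate 1 (−0.22, adjusted p = 0.0531).

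Accessory subunits surround the core and are needed for its assembly and stability. Outside the core, the name rule gave 30 nuclear genes of complex I. They include NDUFA4, described below, and leave out NDUFAB1, which the rule does not match. Of these 30, 13 were higher (43.3%), 1 was lower (3.33%) and 16 did not pass, beside 24.5% higher and 25.1% lower of all genes. NDUFS6, a zinc-binding subunit, was at 168, 169 and 164 CPM in siCtrl and at 223, 209 and 269 CPM in siBAP18 (log2 fold change 0.49, standard error 0.077, adjusted p = 1.02e-05). NDUFS4, whose loss causes Leigh syndrome, was at 81.3, 79.2 and 73.0 CPM against 103, 97.2 and 105 CPM (0.39, adjusted p = 3.49e-05). NDUFA9, which sits at the joint of the arms, was at 38.8, 33.7 and 35.1 CPM against 48.8, 44.0 and 48.1 CPM (0.39, adjusted p = 9.13e-05). None of these 3 genes overlapped between the groups. NDUFA7 was estimated at 0.55, but at 3.03 to 3.40 CPM in siCtrl it was among the least expressed, and 32.3% of its exon bases belong to another listed gene as well. NDUFA5 was the accessory gene that fell, from 43.5, 40.7 and 42.4 CPM to 35.8, 37.1 and 35.7 CPM (−0.22, adjusted p = 0.00844). It was lower in 15 of 18 alternatives, did not pass without siCtrl replicate 1 (−0.20, adjusted p = 0.0585) or with an offset for gene length (−0.11, adjusted p = 0.191), and was higher with an offset for length and GC content (0.30, adjusted p = 6.53e-05).

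NDUFS5 had the highest level per length of all members, at 1437 ± 62.1 RPKM (SD, n = 3) in siCtrl and 1669 ± 72.1 in siBAP18. RPKM divides by the listed gene length, which joins the exons of all transcripts, so levels of genes with long or many transcripts are understated. The log2 fold change of NDUFS5 was 0.21 (adjusted p = 0.0148), which did not pass without siCtrl replicate 1 (0.22, adjusted p = 0.0563), without siCtrl replicate 2 (0.17, adjusted p = 0.129) or with an offset for gene length (0.14, adjusted p = 0.0856). NDUFA4 was counted here by its name, although its product is now placed in complex IV. Its log2 fold change was −0.04 (adjusted p = 0.678), and with an offset for length and GC content it was higher (0.21, adjusted p = 0.0182).

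**Figure D2:**
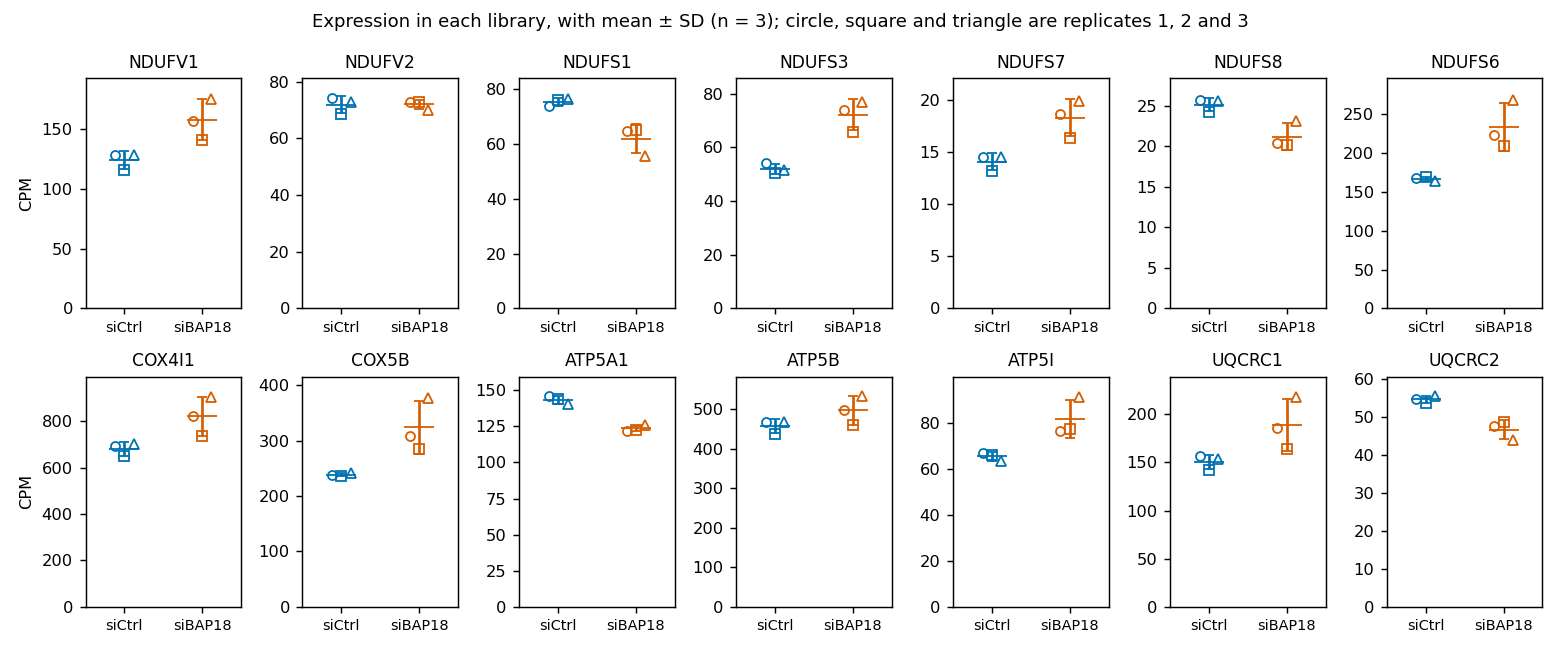
CPM in each library for 7 nuclear genes of complex I (upper row) and 7 genes of complexes III to V (lower row), with the mean and SD of 3 libraries. NDUFS6 stands at 164 to 169 CPM in siCtrl and 209 to 269 CPM in siBAP18, whereas NDUFS1 and NDUFS8 lie lower in siBAP18.

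Complex II, succinate dehydrogenase, has no subunit encoded in mitochondria, and its 4 genes went in different directions. SDHA, the flavoprotein, was at 228, 218 and 231 CPM in siCtrl and at 275, 256 and 274 CPM in siBAP18 (log2 fold change 0.25, standard error 0.065, adjusted p = 0.00225). SDHB, the iron-sulfur subunit and partner of SDHA, was at 21.4, 21.7 and 18.6 CPM against 18.7, 16.0 and 18.7 CPM. Its estimate was −0.21 (adjusted p = 0.0417), the groups overlapped, and it passed in 8 of 18 alternatives. The membrane anchors SDHC and SDHD did not pass, with log2 fold changes of 0.15 (adjusted p = 0.0833) and −0.09 (adjusted p = 0.507). SDHC passed without siBAP18 replicate 3 (0.16, adjusted p = 0.0274), and with offsets for gene length (0.29, adjusted p = 0.000407) and for length and GC content (0.40, adjusted p = 7.5e-07). SDHA has several pseudogenes, and SDHAP1 and SDHAP2 held 6.72% and 5.88% of its counts, so some of its reads may have been divided among near-identical copies.

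Complex III passes electrons from ubiquinol to cytochrome c. Of 8 genes, 2 were higher and 2 lower, or 25% each, near the 24.5% and 25.1% of all genes. In the members' middle range of abundance the shares were 34.7% and 32.9%. The paired core proteins moved in opposite directions. UQCRC1 was at 156, 143 and 154 CPM in siCtrl and at 186, 164 and 217 CPM in siBAP18 (log2 fold change 0.32, standard error 0.081, adjusted p = 0.00164). UQCRC2 was at 54.7, 53.8 and 55.5 CPM against 47.5, 48.6 and 44.0 CPM (−0.23, standard error 0.068, adjusted p = 0.00726). Neither gene overlapped between the groups. UQCRC2 did not pass with an offset for length and GC content (−0.06, adjusted p = 0.398).

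UQCRB, a small subunit near the ubiquinone site, was at 342, 311 and 338 CPM in siCtrl and at 251, 238 and 296 CPM in siBAP18 (log2 fold change −0.34, adjusted p = 0.000624). This was the largest fall among the subunits, and its direction depended on one choice. With an offset for gene length and GC content its estimate was 0.11 (adjusted p = 0.238). UQCRQ had an estimate of 0.22 (adjusted p = 0.0426), with overlapping groups, and passed in 8 of 18 alternatives. Without siBAP18 replicate 3 it stood at 0.08 (adjusted p = 0.326). UQCRFS1, the Rieske iron-sulfur protein, did not pass (0.13, adjusted p = 0.117), but did so without siBAP18 replicate 2 (0.17, adjusted p = 0.0271).

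Complex IV, cytochrome c oxidase, reduces oxygen to water. Of its 11 genes tested, 3 were higher and none was lower by edgeR, DESeq2 or limma (1 was lower at an unadjusted p under 0.05 by edgeR). The share that was higher, 27.3%, was near the 24.5% of all genes, of which 25.1% were lower. Of the genes in the members' middle range of abundance, 34.7% were higher and 32.9% lower. COX5B, a zinc-binding subunit, was at 238, 237 and 242 CPM in siCtrl and at 309, 286 and 378 CPM in siBAP18 (log2 fold change 0.44, standard error 0.080, adjusted p = 5.73e-05). The siCtrl libraries lay close together and the siBAP18 libraries were spread above them. COX4I1, the common form of the subunit that is the site of regulation by ATP, was at 692, 648 and 701 CPM against 823, 737 and 905 CPM (0.27, adjusted p = 0.00344). COX7A2 was at 187, 187 and 181 CPM against 203, 205 and 236 CPM (0.21, adjusted p = 0.0124). It did not pass without siCtrl replicate 1 (0.21, adjusted p = 0.0546), without siCtrl replicate 3 (0.20, adjusted p = 0.0745) or with an offset for gene length (0.09, adjusted p = 0.231).

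COX5A, which joins COX4I1 early in the assembly of the complex, had an estimate of −0.17 (adjusted p = 0.0699). It was lower at −0.24 without siBAP18 replicate 3 (adjusted p = 0.00196) and at −0.27 with an offset for gene length (adjusted p = 0.00145). COX6A1 had an estimate of 0.15 (adjusted p = 0.0896), and without siBAP18 replicate 2 it was higher at 0.22 (adjusted p = 0.00394). The estimates of COX6B1, COX7B and COX8A were 0.07, −0.08 and 0.09, with adjusted p from 0.324 to 0.516, and those of COX6C and COX7C were −0.04 and −0.02 (adjusted p = 0.656 and 0.811). Of the tissue-restricted isoforms, COX6B2 of testis had 6 to 18 counts a library and did not pass (0.15, adjusted p = 0.817), and COX7A1 of muscle had 0 to 4 counts and was not tested. COX4I2, COX6A2, COX7B2 and COX8C had no entry among the genes listed.

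Complex V has a catalytic F1 part, a ring of subunit c, and a membrane part and stalk that hold F1 in place. Across its 17 genes tested, 4 were higher and 5 lower, with a median log2 fold change of 0.00. Those shares, 23.5% and 29.4%, were near the 24.5% and 25.1% of all genes. In the members' middle range of abundance the shares were 34.7% and 32.9%. Of the 5 that were lower, 2 (ATP5S and ATP5SL) were matched by name only and are described below. The 4 that were higher were all among the 7 genes of the membrane part and stalk. That is 57.1% of the 7, beside 24.5% of all genes. None of the 7 was lower by edgeR, DESeq2 or limma, also at an unadjusted p under 0.05. ATP5I was at 66.9, 66.1 and 63.3 CPM in siCtrl and at 76.3, 77.5 and 91.1 CPM in siBAP18 (log2 fold change 0.32, standard error 0.073, adjusted p = 0.000744). ATP5J2 (0.31, adjusted p = 0.000769), ATP5L (0.29, adjusted p = 0.00156) and ATP5F1 (0.22, adjusted p = 0.00936) were also higher. In all 4 genes the groups were separate. For ATP5I, 61.6% of the exon bases are shared with MYL5 on the opposite strand, and whether the counting used strand is not given in the sources used here.

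Of the 5 genes of the F1 part, 2 were lower and none was higher. The share that was lower, 40%, stands beside 25.1% of all genes and 32.9% of those in the members' middle range of abundance. It rests on 5 genes, and a difference between the parts of complex V was not tested. At an unadjusted p under 0.05, 3 were lower and none higher, with DESeq2 1 was lower, and with limma 2 were lower. ATP5A1, the alpha subunit, was at 146, 144 and 141 CPM in siCtrl and at 122, 123 and 126 CPM in siBAP18 (log2 fold change −0.22, standard error 0.064, adjusted p = 0.00624). It did not pass with an offset for gene length (−0.09, adjusted p = 0.262) or for length and GC content (−0.06, adjusted p = 0.409). ATP5C1, the central gamma subunit, passed narrowly at −0.16 (adjusted p = 0.0489) and did so in 7 of 18 alternatives. ATP5B, the beta subunit that holds the catalytic sites, was at 467, 439 and 468 CPM against 499, 460 and 534 CPM and did not pass (0.12, adjusted p = 0.158). Without siBAP18 replicate 2 it was higher at 0.17 (adjusted p = 0.0179), as was ATP5D at 0.20 (adjusted p = 0.0327). ATP5E had an estimate of −0.15 (adjusted p = 0.0838), was lower at −0.18 without siBAP18 replicate 3 (adjusted p = 0.0155), and was higher at 0.22 with an offset for length and GC content (adjusted p = 0.00879).

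Subunit c is made from ATP5G1, ATP5G2 and ATP5G3, whose mature proteins are identical. ATP5G1 was at 45.8, 43.8 and 45.2 CPM in siCtrl and at 40.6, 34.5 and 41.1 CPM in siBAP18 (log2 fold change −0.22, adjusted p = 0.0173). ATP5G2 and ATP5G3 did not pass (−0.01 and −0.13, adjusted p = 0.898 and 0.195). ATP5G1 gave 31.7% to 31.9% of the counts of the 3 genes in siCtrl and 28.2% to 31.0% in siBAP18. Its call was lost without siCtrl replicate 1 (adjusted p = 0.0709), without siCtrl replicate 3 (adjusted p = 0.0593) and without siBAP18 replicate 2 (adjusted p = 0.0863). ATP5G3 was lower at −0.22 without siBAP18 replicate 3 (adjusted p = 0.00475).

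The name rule also took in ATP5S, ATP5SL and ATP5L2, which are not regular subunits of ATP synthase. ATP5S, a coupling factor, was at 10.4, 10.6 and 9.37 CPM in siCtrl and at 8.07, 7.76 and 8.04 CPM in siBAP18 (log2 fold change −0.35, adjusted p = 0.00342). It did not pass with an offset for gene length (−0.22, adjusted p = 0.058) or for length and GC content (−0.11, adjusted p = 0.313). ATP5SL, an assembly factor of complex I now named DMAC2, was at 58.7, 59.2 and 55.4 CPM against 49.3, 43.7 and 50.8 CPM (−0.27, adjusted p = 0.00271). Both fell, and ATP5SL was the 1 member that was lower in every alternative. ATP5L2, a copy of ATP5L, had 2 counts in 1 library, 0 in the others, and was not tested.

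Summed over all members, expression was 8360 ± 217 CPM (SD, n = 3) in siCtrl and 9327 ± 720 CPM in siBAP18, or 112% ± 8.62 of the siCtrl mean. Complex I stood at 118%, 110% and 128% of the siCtrl mean in siBAP18 replicates 1, 2 and 3, against 96.6% to 102% in siCtrl. Complex II stood at 116%, 112% and 116%. In these 2 complexes the siBAP18 sums lay above all siCtrl sums. Complex IV was at 111%, 102% and 122%, where replicate 2 lay within the siCtrl range. Complex III was at 97.4%, 92.8% and 115%, and complex V at 104%, 96.4% and 110%, on both sides of the siCtrl range. Sums follow the most abundant genes. The mean of complex II in particular follows SDHA.

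The 13 subunits encoded by mitochondrial DNA leaned to lower expression. Of these, 9 were lower, 4 did not pass and none was higher, with a median log2 fold change of −0.31. The share that was lower was 69.2%, beside 25.1% of all genes. Their average log2 CPM of 9.20 to 13.3 lies above the range of 4.06 to 8.01 compared earlier. No share at like abundance was taken for them. At an unadjusted p the counts were the same, and DESeq2 gave 8 and limma 9 that were lower, with none higher. Their sum was 81.6%, 72.1% and 91.9% of the siCtrl mean in siBAP18 replicates 1, 2 and 3. MT-CO2, an electron-accepting subunit of complex IV, had the smallest adjusted p (log2 fold change −0.45, adjusted p = 8.83e-05), followed by MT-ND4L (−0.38, adjusted p = 0.000257) and MT-ND4 (−0.36, adjusted p = 0.000736). Replicate 2 was the lowest and replicate 3 the highest in siBAP18 in both the nuclear and the mitochondrial sums. Leaving mitochondrial genes out of the library totals gave the same 27 higher and 11 lower counts of members.

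**Figure D3:**
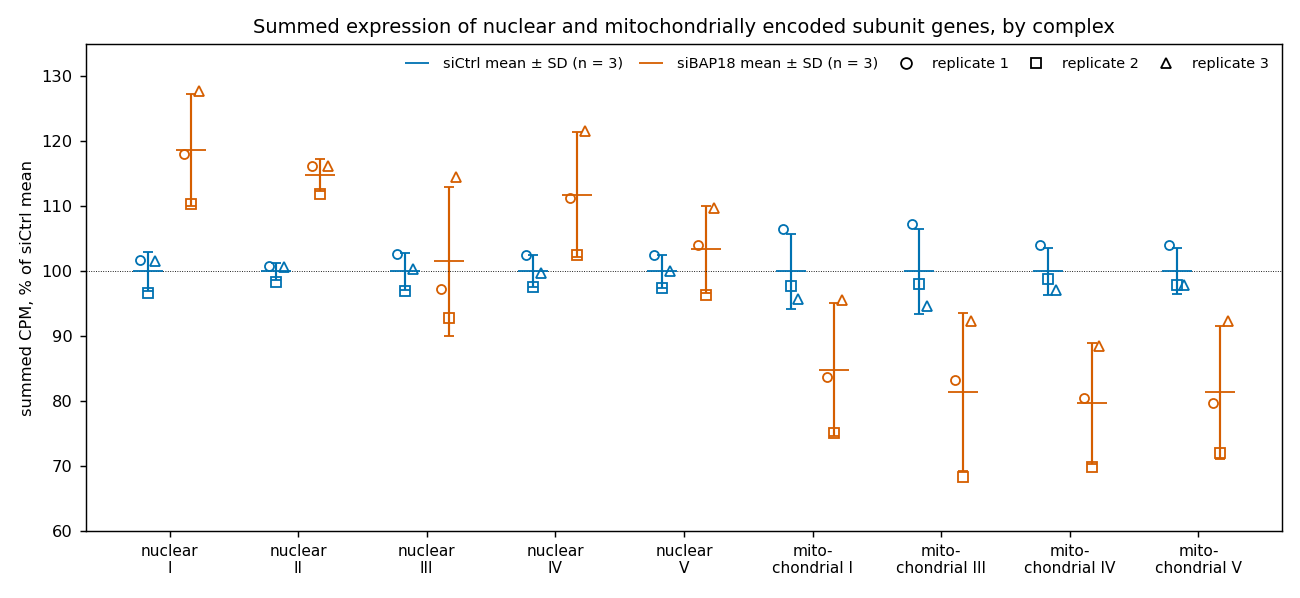
Summed CPM of the nuclear members of complexes I to V and of the mitochondrially encoded subunits of complexes I, III, IV and V in each library, as a percent of the siCtrl mean, with mean and SD of 3 libraries. Nuclear complex I stands at 110% to 128% in siBAP18, and the mitochondrial sum of complex IV at 70.0% to 88.6%.

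Genes that serve the chain without being in the name rule were examined as further lists. Of 51 assembly factors, 25 were higher, 10 lower and 16 did not pass, with a median log2 fold change of 0.16, beside 24.5% higher and 25.1% lower of all genes. For complex I, NDUFAF5 and NDUFAF6 were higher (0.69 and 0.57, adjusted p = 1.46e-07 and 1.35e-05). TMEM126B, which builds the membrane arm, was lower, from 28.6, 26.9 and 24.9 CPM to 18.0, 17.7 and 17.9 CPM (−0.58, adjusted p = 4.98e-07). For complex II, SDHAF1 and SDHAF2, which serve the maturation of SDHB and SDHA, were higher (0.52 and 0.24, adjusted p = 0.000256 and 0.00769). SDHAF2 did not pass without siCtrl replicate 3 (0.21, adjusted p = 0.0577) or with an offset for gene length (0.14, adjusted p = 0.0962). SDHAF3 had an estimate of −0.25 (adjusted p = 0.0379), with overlapping groups. It did not pass by DESeq2 (adjusted p = 0.112), or without siCtrl replicate 1, siCtrl replicate 2 or siBAP18 replicate 1 (adjusted p = 0.0855, 0.212 and 0.192). SDHAF4 did not pass (0.15, adjusted p = 0.307).

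Of the complex III factors, UQCC3 was at 56.8 to 62.6 CPM in siCtrl and at 86.0 to 117 CPM in siBAP18 (0.75, adjusted p = 5.14e-08), and UQCC1 was higher as well (0.38, adjusted p = 0.00017). LYRM7, the chaperone of the Rieske protein, was lower, from 7.67, 8.04 and 7.53 CPM to 4.12, 4.35 and 4.93 CPM (−0.80, adjusted p = 1.42e-06). Of the complex IV factors, TACO1, the translational activator of MT-CO1, was higher (0.68, adjusted p = 4.34e-08), as was SURF1 (0.48, adjusted p = 3.42e-05). COX20, the chaperone of MT-CO2, was lower (−0.45, adjusted p = 1.15e-05). ATPIF1, the inhibitor of ATP synthase, was higher (0.28, adjusted p = 0.00154), and ATPAF1, ATPAF2 and TMEM70 did not pass (0.16, −0.08 and −0.21). ATPAF1 was higher without siBAP18 replicate 3 (0.22, adjusted p = 0.00887), and TMEM70 was lower without siBAP18 replicate 2 (−0.33, adjusted p = 0.0121). The estimates of the factors ranged from −0.80 to 0.75.

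A further 8 subunits and related genes have names outside the rule, and 4 of them were higher and none lower, by edgeR, DESeq2 and limma alike and at an unadjusted p under 0.05. The share of 50% that was higher stands beside 24.5% of all genes. CYC1, the cytochrome c1 of complex III, was at 53.4, 50.3 and 53.5 CPM in siCtrl and at 67.3, 60.3 and 75.0 CPM in siBAP18 (0.36, adjusted p = 0.000251). USMG5 of complex V (0.37, adjusted p = 0.000787) and NDUFA4L2, a relative of NDUFA4 known to be induced in hypoxia (0.75, adjusted p = 0.00111), were higher. NDUFA4L2 had no more than 2.32 CPM in any library.

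Among 13 regulators of respiratory chain genes, 3 were higher and 4 lower, or 23.1% and 30.8%, beside 24.5% and 25.1% of all genes. HIF1A, the oxygen-regulated factor, was at 146, 137 and 141 CPM in siCtrl and at 68.5, 68.5 and 66.1 CPM in siBAP18 (log2 fold change −1.06, standard error 0.065, adjusted p = 1.19e-12). It was the 1 regulator past both thresholds. PPARGC1A, the coactivator PGC-1α, was lower (−0.72, adjusted p = 3.16e-07). TFAM, which packages and helps transcribe mitochondrial DNA, was at 24.7, 24.4 and 26.1 CPM against 19.1, 20.1 and 18.6 CPM (−0.38, adjusted p = 0.00012). TFAM did not pass with an offset for length and GC content (−0.04, adjusted p = 0.654). TFB1M was also lower (−0.35, adjusted p = 0.0326). The 3 that were higher were GABPB1 (0.34, adjusted p = 0.000504), PPRC1 (0.28, adjusted p = 0.00131) and ESRRA (0.27, adjusted p = 0.00572). NRF1, GABPA and YY1, whose motifs were searched above, did not pass (0.04, −0.09 and 0.10, adjusted p = 0.75, 0.29 and 0.28).

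Mitochondrial ribosomal protein genes, whose products translate the mitochondrially encoded subunits, were higher in 46 of 78 cases and lower in 8, with a median log2 fold change of 0.22. Of the 84 cytosolic ribosomal protein genes tested, 17 were higher and 3 lower, with a median of 0.09. The share that was higher was 59.0% in the mitochondrial and 20.2% in the cytosolic list, beside 24.5% of all genes and 35.1% of the nuclear respiratory chain genes. Differences between these lists were not tested.

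**Figure D4:**
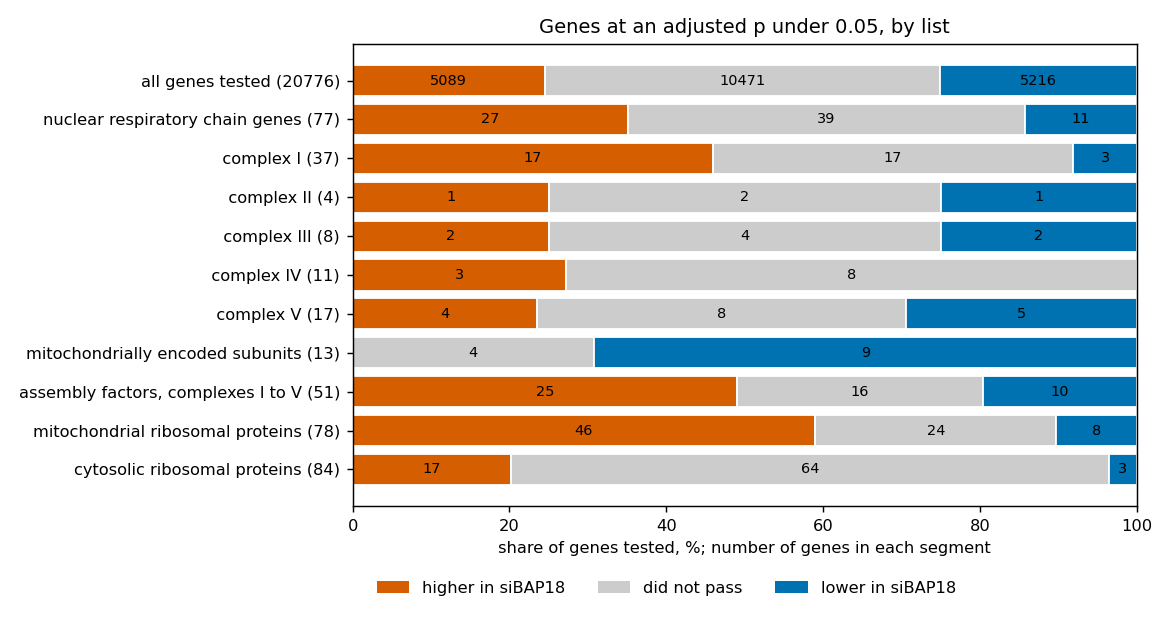
Share of the genes tested in each list that were higher, did not pass or were lower in siBAP18 at an adjusted p under 0.05, with the number of genes in each segment. Complex I (17 of 37 higher) and the mitochondrial ribosomal proteins (46 of 78 higher) lean to higher expression, and the mitochondrially encoded subunits (9 of 13 lower) to lower.

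Members that were higher and lower differed in the make-up of their transcripts. The median GC content was 52.9% in the 27 that were higher, 47.3% in the 39 that did not pass and 44.2% in the 11 that were lower. The median listed length was 1999, 2475 and 5217 bases in the same order. The ranges overlapped, since NDUFS8 was lower at a GC content of 61.6% and ATP5L was higher at 41.9%. With an offset for length and GC content, 29 members were higher and 7 lower, but these were partly different genes. Of the 11 members that were lower without it, 4 were lower with it, 6 did not pass and NDUFA5 was higher, while UQCR10, UQCR11 and COX5A became lower. Of the 27 that were higher, 20 were higher with it and 7 did not pass. Over 10% of the exon bases were shared with another listed gene in 27 of the 79 members, namely 10 of those that were higher, 2 that were lower and 15 that did not pass.

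**Figure D5:**
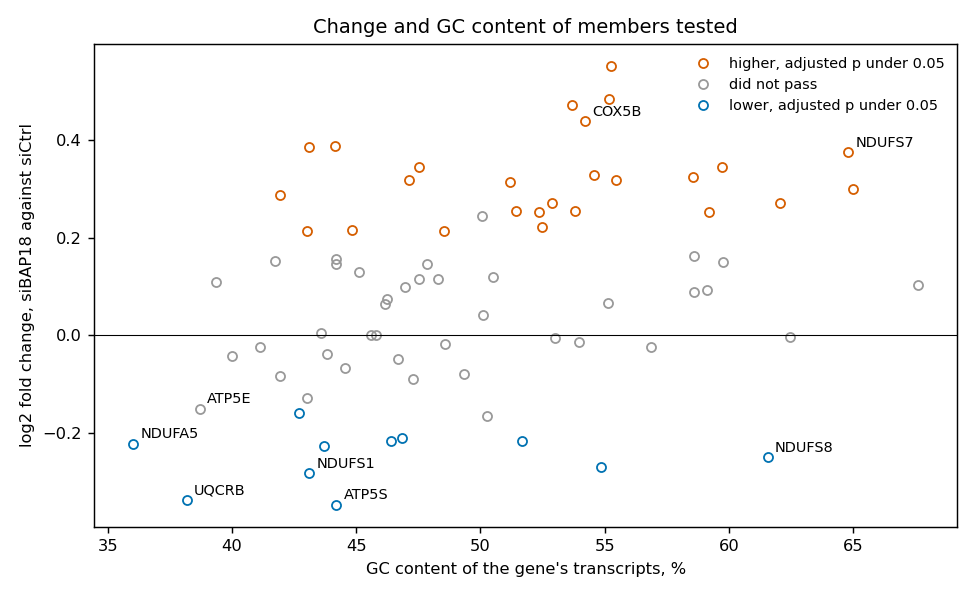
Log2 fold change of 76 of the genes tested against the GC content of their transcripts in percent, 1 point a gene, with 8 genes named. The genes that were lower lie mostly below 50% GC, with NDUFS8 (61.6%), ATP5SL (54.8%) and ATP5G1 (51.7%) as exceptions.

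Across 18 alternatives in scaling, filter, test, offset and libraries used, 18 members were higher in every one. They included NDUFS3, NDUFS4, NDUFS6, NDUFS7, NDUFA6, NDUFA7, NDUFA9, NDUFB8, NDUFB9, NDUFV1, SDHA, UQCRC1, COX5B, COX4I1, ATP5I, ATP5J2 and ATP5L. The number of members that were higher was 23 to 33 and the number that were lower 7 to 14 when 1 library was left out. The extremes belonged to siBAP18 replicate 2, without which 33 were higher and 8 lower, to siBAP18 replicate 3, without which 14 were lower, and to siCtrl replicates 2 and 1, without which 23 were higher and 7 lower.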

How the data were processed

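RNA sequencing covered 3 siCtrl and 3 siBAP18 cultures of A549, grouped by their titles. The authors deposited counts per gene, which are whole numbers without normalization, and RPKM values, which equal the count per kilobase of listed gene length relative to the library total. Aligner, counter and use of strand are not given in the sources used here. Positions are on GRCh38. Library totals are given with the results, and intervals of depth cover counting error only.

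TMM scaling followed edgeR's filterByExpr, and conditions were compared with the quasi-likelihood test of edgeR 4.0.16 (R 4.3.3), with Benjamini-Hochberg adjustment over 20776 genes. Standard errors were obtained from the estimate and the F statistic (estimate over root F). Alternatives used DESeq2 1.42.0 and limma 3.58.1 on log2(RPKM + 1) or log2(RPKM + 0.1). The steps were tested on simulated data. GC content came from GENCODE transcripts and was matched for all 79 members, and for 81.0% of the genes tested. Tables and plots were made with Python, pandas and matplotlib.

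Members and lists were chosen with earlier results of these data known. Named members are the 5 with the smallest adjusted p in each complex, all SDH genes, the complex I core, UQCRFS1, UQCRC1 and UQCRC2, isoform pairs of complex IV, the F1 and subunit c genes, those of highest and lowest RPKM, and those matched by name only. Of the other lists, the 3 smallest adjusted p and every gene of lists of 5 or fewer are named. NDUFA4, NDUFA5, NDUFA7, UQCR10, UQCR11, NRF1, GABPA, YY1, GABPB1, PPRC1, ESRRA and TFB1M, and the promoters shown, were added after their values were seen. Replicates were compared for copies by chi-square, and all pairs differed by more than sampling noise (at least 4.17 per degree of freedom). The values of 1 member, which is part of the counts and sums, are not reported here.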

Additional observations from a re-analysis of the deposited data

How the results depend on the processing

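Among values of named genes recomputed under each alternative, 1462 kept their direction and side of the threshold, 74 lost and 25 gained a call, and 26 changed sign. With an offset for gene length and GC content, chosen after seeing the data, the estimate was 0.30 for NDUFA5, 0.21 for NDUFA4, 0.061 for COX6C, 0.10 for COX7C, −0.021 for KRT19, 0.11 for UQCRB, 0.22 for ATP5E, 0.10 for ATP5G3, 0.075 for COX7B, −0.093 for ATP5D, −0.10 for COX6B1 and −0.11 for COX8A, and 7 members were lower (members called lower, 11 in the report). The offset was fitted to these same libraries and takes out any trend with length or GC content, whatever its source. It is therefore no test of the cause, which was not tested. With gene length alone, NDUFV2 stood at −0.086, ATP5D at −0.012 and COX6B1 at −0.026, and with no filter NDUFV2 stood at −0.015. With 1 library left out, estimates ranged from −0.035 to 0.021 for NDUFV2, −0.077 to 0.023 for COX7C, −0.14 to 0.50 for COX6B2, −0.098 to 0.058 for ATP5G2, −0.053 to 0.13 for COX6B1 and −0.0023 to 0.17 for COX8A, and members called lower from 7 to 14. Apart from UQCRB and NDUFA5, none of these genes had passed. Without members that share over 10% of their exon bases with another gene, also chosen after seeing the data, members called higher numbered 17, because fewer were counted. No member passed both thresholds under any alternative. The number of genes called at both thresholds was 1758, but 348 with limma on log2(RPKM + 1) and 909 on log2(RPKM + 0.1), where the pseudocount shrinks low genes and a mean RPKM of 0.5 was required. With the replicate number as a replicate block, members called higher were 28 and members called lower 13. The numbers were not taken to pair the libraries. Across genes, r of deviations from group means was 0.077, 0.239 and 0.116 for replicates 1, 2 and 3, the first under 0.1. Every library nevertheless correlated best with its own number, so these values do not settle whether the libraries are paired. Medians of all complexes moved by less than 1 SD between siBAP18 libraries (0.076, 0.097, 0.12, 0.17 and 0.11 for complexes I to V). The medians of complexes II to V were only 0.03, 0.04, 0.09 and 0.00. For these complexes the criterion could not have caught a median that fell to 0.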
